A study of Mus musculus with 16 samples.

Results

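Gasdermins are proteins that open pores in the cell membrane, and inflammasomes are the assemblies that switch some of them on. The 10 genes described here are Gsdmc2, Gsdmc3, Gsdmc4, Gsdmd, Nlrp9b, Nlrc4, Nlrp6, Casp1, Casp4 and Il18, out of 24420 gene symbols in each table. They were chosen by gene symbol for their roles in this pathway and with results of both genotype comparisons known. Which values set the choice is not recorded, so every genotype difference of these 10 genes is given as a description, with no p-value, and where a gene is said to pass a threshold this describes the values and supports nothing. Expression was measured in mouse small intestine by sequencing of tags from the 3' ends of transcripts in 16 libraries, all of strain C57B6. In the first experiment, the material was isolated enterocytes, which absorb nutrients across the gut lining, from Mfge8 null mice (5 libraries) and from WT mice (4 libraries). In the second, small intestinal tissue came from Cd36 null mice (3 libraries) and WT mice (4 libraries). MFGE8 is a secreted protein that binds integrins and phosphatidylserine, and CD36 is a membrane protein that takes up fatty acids. The labels give genotype as null or KO and WT, and the age, the sex and the design of each deletion are not given in the sources used here.

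An inflammasome forms when a sensor such as NLRC4, NLRP6 or NLRP9b responds to a microbial product, directly or through a helper protein. It activates caspase-1, often through the adaptor ASC. Caspase-1 cuts gasdermin D, whose freed end inserts into the membrane, and cuts pro-interleukin-18 into its active form. Caspase-11, encoded by mouse Casp4, is a receptor for bacterial lipopolysaccharide inside the cell and also cuts gasdermin D. The gasdermin C proteins are a separate mouse branch encoded by neighbouring genes, known in the gut for their induction in epithelium by the type 2 cytokines IL-4 and IL-13 through STAT6. IL-18 is made constitutively by gut epithelium.

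On RefSeq's GRCm38.p6 coordinates, the build named mm10 in the submitters' processing notes, the genes of the gasdermin C branch lie side by side on chromosome 15. Gsdmc2 spans chr15:63824328-63845193, Gsdmc3 spans chr15:63857605-63878579 and Gsdmc4 spans chr15:63891140-63912319. Gsdmd is on the same chromosome at chr15:75862144-75867408. The sensors are at chr7:19991393-20062942 (Nlrp9b), chr17:74426255-74459144 (Nlrc4) and chr7:140920902-140929192 (Nlrp6). Casp1 (chr9:5298517-5307281) and Casp4 (chr9:5308849-5336791) are neighbours on chromosome 9, which also carries Il18 (chr9:50554700-50581841).

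RefSeq promoter windows, each from 250 bases before to 50 bases after an annotated start, were matched for 7 of the 10 genes. The windows below belong to the genes whose levels differed most between genotypes and that had an entry. Each is printed 5' to 3' on the gene's own strand, and capitals mark matches to the motifs searched.
Gsdmc3: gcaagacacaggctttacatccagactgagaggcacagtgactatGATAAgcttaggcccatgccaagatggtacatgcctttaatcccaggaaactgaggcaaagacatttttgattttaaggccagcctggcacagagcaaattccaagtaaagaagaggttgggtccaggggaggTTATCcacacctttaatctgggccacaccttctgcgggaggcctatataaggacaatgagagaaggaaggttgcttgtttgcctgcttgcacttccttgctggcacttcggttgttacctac
Nlrp9b: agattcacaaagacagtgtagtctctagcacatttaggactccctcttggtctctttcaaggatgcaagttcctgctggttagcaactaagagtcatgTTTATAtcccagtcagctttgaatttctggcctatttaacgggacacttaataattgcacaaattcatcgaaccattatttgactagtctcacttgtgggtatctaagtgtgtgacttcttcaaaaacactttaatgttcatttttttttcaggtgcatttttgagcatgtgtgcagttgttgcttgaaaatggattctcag
Nlrc4: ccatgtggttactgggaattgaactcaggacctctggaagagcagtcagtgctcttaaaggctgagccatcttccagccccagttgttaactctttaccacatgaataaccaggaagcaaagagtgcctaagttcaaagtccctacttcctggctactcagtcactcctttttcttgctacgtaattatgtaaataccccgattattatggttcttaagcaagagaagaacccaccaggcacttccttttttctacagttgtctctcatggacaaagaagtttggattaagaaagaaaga
The Gsdmc3 window is the minus strand of chr15:63878509-63878808, the Nlrp9b window the plus strand of chr7:20007773-20008072 and the Nlrc4 window the minus strand of chr17:74459059-74459358. The Nlrp9b window lies inside the gene's span (chr7:19991393-20062942), away from its ends. Its start is thus an annotated start within the gene, and whether the gene is transcribed from there was not tested. The motifs, searched on both strands, were a STAT6 type (TTCNNNNGAA), an interferon-response type (GAAANNGAAA), an HNF4 type (CAAAGTCCA), a GATA type (GATAA) and a TATA type (TATAAA). The Gsdmc3 window held 2 matches to the GATA type, at -205 and -72 from the start, and none to the STAT6 type. The Nlrp9b window held 1 match, to the TATA type, at -152. The Nlrc4 window held none of the 5. Among the other windows, that of Il18 held a STAT6-type match (TTCCCCAGAA) at -46. Of all 32851 RefSeq mouse windows, 6.95% hold the STAT6 type, 25.4% the GATA type and 13.6% the TATA type, so these matches are common by letters alone. The HNF4 type is in 0.475% of windows and the interferon-response type in 3.44%, and neither was in any of the 8 windows matched. Gsdmc2, Gsdmc4 and Gsdmd had no entry.

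The enterocyte libraries held 1618369 to 2459812 reads and the intestine libraries 850297 to 1000694. A value is a normalised read, that is, reads divided by one scaling factor per library. Because each transcript gives tags from its 3' end, its length hardly enters, and levels can be compared between genes within a table. The 2 tables were scaled separately and are not compared in level. Mfge8 had 1.64 to 7.50 normalised reads in Mfge8 null enterocytes and 7.94 to 23.4 in WT enterocytes, while Cd36 had 6.48 to 16.0 in Cd36 null intestine and 111 to 116 in WT intestine. For Mfge8 the groups nearly met, with 7 reads in null library 4 and 8 reads in WT library 4, and where the deletions lie relative to the counted tags is not given. Same-genotype enterocyte libraries differed by 6.26 to 20.2 times the variance of counting (16 pairs). Intestine libraries of a genotype differed by only 0.987 to 1.12 times (9 pairs), so they were treated as 1 sample per genotype, and the intestine comparison has no test. Enterocyte markers were high in every library (summed over 8 genes, 56130 to 81070 in Mfge8 null and 50730 to 77790 in WT enterocytes). Goblet cell markers were as high in the libraries labelled enterocytes, at 32740 to 104700 in Mfge8 null and 49170 to 81670 in WT. Smooth muscle markers were at or near 0 in every library, tissue included (0 to 3.92 summed over 4 genes). The intestine libraries thus showed hardly any signal of the muscle wall.

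In both experiments the gasdermin C genes were higher in the null than in the WT libraries, while the intervals of Gsdmd, Nlrp6, Casp4 and Il18 included no difference in both. The sensors Nlrp9b and Nlrc4 were lower in Cd36 null intestine, at 0.24 and 0.345 of the WT reads, and their log2 changes in Mfge8 null enterocytes were -0.33 and -0.06. The null and WT groups of each experiment are their own, so the experiments share no control library. In enterocytes, limma's moderated test on log2(value + 1) with Benjamini-Hochberg adjustment over 9432 genes called 303 genes at 0.05 (3.21%), and 3 of these 10, all of the gasdermin C branch. The ranges of null and WT libraries lay apart for 606 of these genes (6.42%), with Gsdmc2 as the 1 among the 10. In the intestine, a gene was counted when its libraries did not overlap and its difference passed 1.5 fold. That held for 243 of 9314 genes in the higher direction (2.61%) and 295 in the lower direction (3.17%), and for 3 higher and 2 lower among these 10. Since the genes were chosen with these contrasts known, nothing is read from their counts against those shares. All 10 genes passed the filters on low values in both tables.

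**Figure D1:**
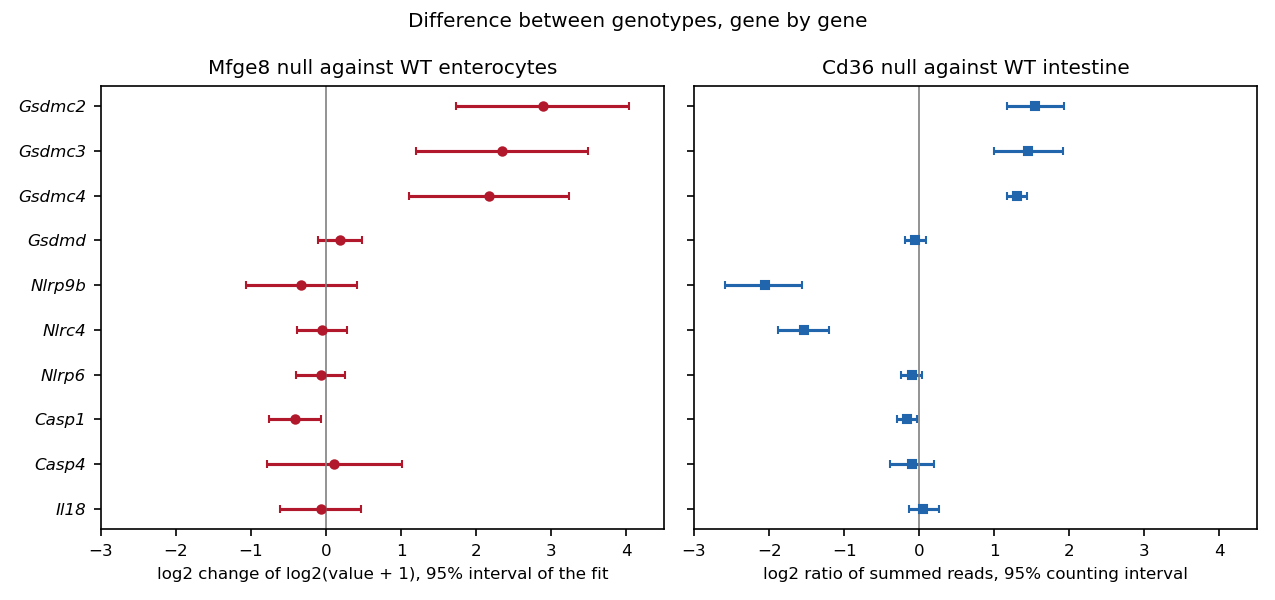
Log2 difference of null from WT for each of the 10 genes in enterocytes (left) and in small intestine (right). Points are differences of mean log2(value + 1) on the left and log2 ratios of scaled reads on the right, and bars are 95% intervals, from limma on the left and from read counting only on the right. Gsdmc2, Gsdmc3 and Gsdmc4 lie right of 0 in both panels, and Nlrp9b and Nlrc4 lie far left of 0 in the intestine panel.

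Gsdmc2 showed the largest difference of the 10 genes in enterocytes. It had 85.2, 112, 159.8, 18.2 and 95.1 normalised reads in Mfge8 null libraries 1 to 5, against 14.0, 16.6, 2.35 and 12.9 in WT libraries 1 to 4. The lowest null library, number 4, lay just above the highest WT library, so the groups did not overlap. Gsdmc2 averaged 94.0 ± 51.2 in Mfge8 null and 11.5 ± 6.28 in WT enterocytes (SD, n = 5 and 4), an 8.19-fold ratio of means, with a log2 change of 2.89 (SE 0.545, 95% interval 1.73 to 4.04). The WT values rest on few tags, 3 to 16 reads per library. In the intestine, Gsdmc2 had 65.2, 57.5 and 66.6 in Cd36 null libraries, against 33.6, 16.5, 12.5 and 23.6 in WT libraries. Every null library was above every WT library, and the WT libraries spread 2.7-fold among themselves, the widest spread of any of the 10 genes in WT intestine. The ratio of scaled reads was 2.91 (95% exact binomial interval 2.25 to 3.79, counting error only).

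Gsdmc4 was the most abundant gene of the branch in all 4 groups. It had 275, 183, 276, 39.6 and 223 normalised reads in Mfge8 null libraries 1 to 5, against 30.4, 86.3, 15.7 and 39.7 in WT libraries 1 to 4. Null library 4 fell within the WT range, and the other 4 null libraries were above all WT libraries. The means were 199 ± 97.4 in Mfge8 null and 43.0 ± 30.5 in WT enterocytes (SD, n = 5 and 4), a log2 change of 2.17 (SE 0.506). In the intestine it had 414, 407 and 402 in Cd36 null libraries, against 169, 174, 158 and 162 in WT libraries. Here the libraries of a genotype lay within 1.1-fold of each other and the genotypes stood well apart, with a read ratio of 2.46 (2.24 to 2.71).

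Gsdmc3 was the least abundant gene of the branch. It had 21.6, 48.2, 53.9, 6.42 and 26.2 normalised reads in Mfge8 null libraries 1 to 5, against 1.17, 7.28, 3.92 and 6.95 in WT libraries 1 to 4. Null library 4 again lay inside the WT range. The means were 31.3 ± 19.6 in Mfge8 null and 4.83 ± 2.87 in WT enterocytes (SD, n = 5 and 4), a log2 change of 2.35 (SE 0.541). In Cd36 null intestine it had 40.7, 41.5 and 42.6, against 15.4, 15.5, 17.7 and 12.3 in WT intestine. The genotypes did not overlap, and the read ratio was 2.74 (2 to 3.78).

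**Figure D2:**
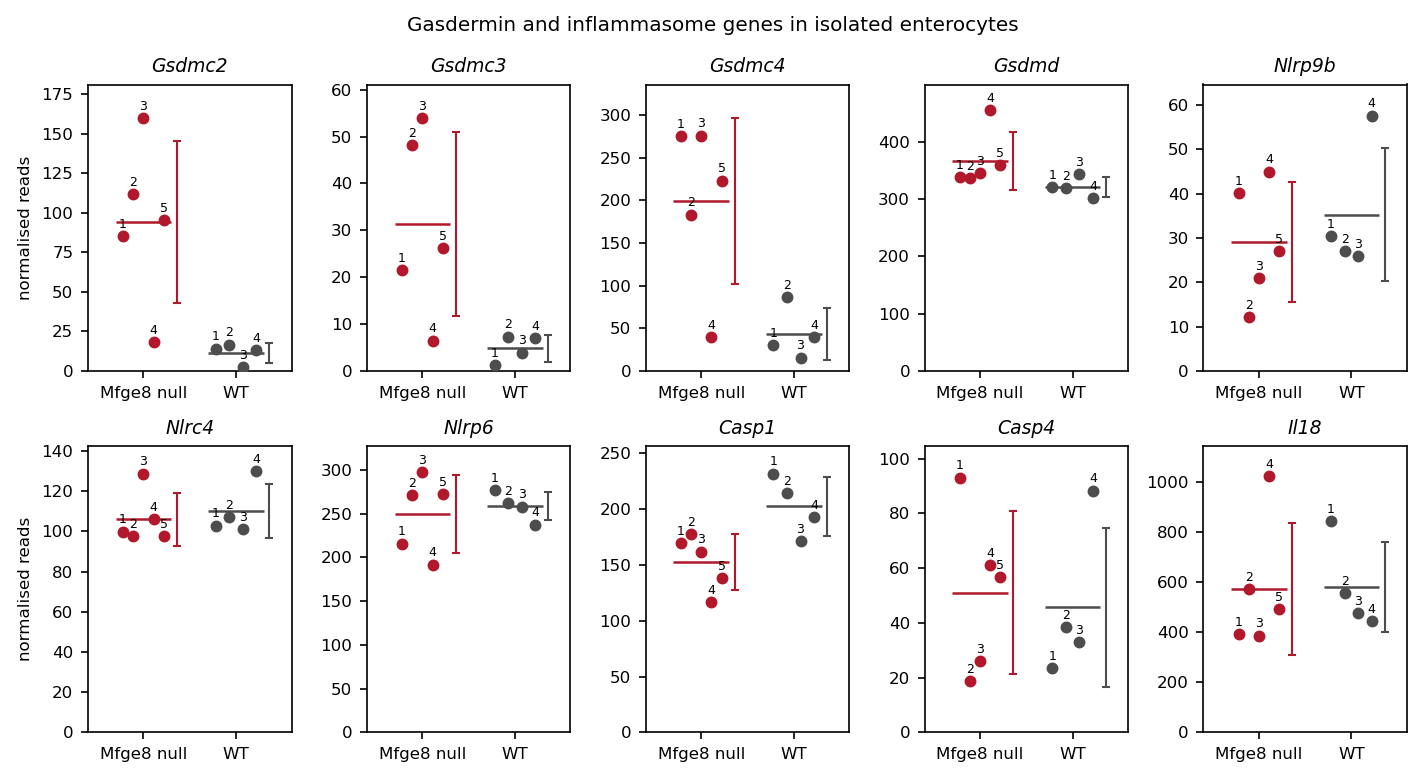
Normalised reads of the 10 genes in each enterocyte library, Mfge8 null left of WT; numbers are library numbers and lines are group means. In the 3 gasdermin C panels null library 4 sits far below the other null libraries, at 18.2, 6.42 and 39.6 for Gsdmc2, Gsdmc3 and Gsdmc4.

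The side of the limma threshold on which these genes fell moved with the setting, which is given as a description of the values that chose them. Gsdmc2 was past it in all 19 alternative settings, with log2 changes from 2.34 to 3.39. Gsdmc3 was past it in 14 of the 19 (1.72 to 2.8), and was not past it without null library 3 (2.08), null library 5 (2.33), WT library 1 (1.93) or WT library 3 (2.33). Gsdmc4 was past it in 12 of the 19 (1.79 to 2.68), and was not past it without null library 1 (1.99), 3 (1.99) or 5 (2.07) and without WT library 1 (2.09) or 3 (1.79). Null library 4 also had the most Mfge8 of the null libraries (7.50). Without it the changes were 3.39 for Gsdmc2, 2.8 for Gsdmc3 and 2.68 for Gsdmc4. Whether libraries are separate animals is not said in the labels, so limma's p-values here measure only library-to-library spread, which may be technical.

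Summed over the branch, Mfge8 null libraries 1 to 5 held 382, 343, 489, 64.2 and 344 normalised reads, against 45.6, 110.2, 21.9 and 59.6 in WT libraries 1 to 4. Cd36 null intestine held 520.3, 506 and 511, against 218, 206, 188 and 198 in WT intestine. Over all reads of a group, Gsdmc4 supplied 61.7% of the branch's reads in Mfge8 null enterocytes and 72.5% in WT enterocytes, and 79.5% in Cd36 null and 81.8% in WT intestine. Gsdmc2 supplied 28.8% and 18.9% in Mfge8 null and WT enterocytes, and 12.4% and 10.8% in Cd36 null and WT intestine. Per library the Gsdmc4 share ran from 53.4% to 72.1% in Mfge8 null and from 66.7% to 78.3% in WT enterocytes, and from 78.6% to 80.4% in Cd36 null and from 77.5% to 84.4% in WT intestine. The ranges of null and WT overlap in each experiment, as do those of WT enterocytes and WT intestine. The named gene Gsdmc beside the branch was at or near 0 and averaged 0.611 normalised reads in Mfge8 null and 0 in WT enterocytes, and 1.87 in Cd36 null and 1.29 in WT intestine. Asap1, the nearest expressed gene outside the branch and a regulator of ARF GTPases, averaged 71 in Mfge8 null and 66.0 in WT enterocytes, and 54.0 in Cd36 null and 46.7 in WT intestine.

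Reads of these close copies could be mixed by the counting. Windows of 100 bases, the read length, were compared over the last 500 bases of the longest annotated transcript. Of 401 windows, 56 of Gsdmc2 (14%) and 57 of Gsdmc3 (14.2%) occur identically in another gasdermin C or gasdermin C-like gene, and 0 of Gsdmc4. Over the whole transcript the shared windows were 28.6% for Gsdmc2, 30.5% for Gsdmc3 and 20.2% for Gsdmc4. The last 500 bases of Gsdmc3 and Gsdmc4 are 88.8% identical, those of Gsdmc2 and Gsdmc3 56.7%. Which gene shares each window was not recorded, and how the counting treated shared reads is not given. Some reads of Gsdmc2 and Gsdmc3 could therefore be misplaced or lost, and some of Gsdmc4 where tags came from outside the last 500 bases. No such sharing was found in the tails of Nlrp9b or between Casp1 and Casp4 (0 of 401 windows each). Over the whole Nlrp9b transcript 1.36% of windows were shared.

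Gsdmd, the gasdermin that caspase-1 and caspase-11 cut, was abundant and even. It had 338, 337, 345, 455 and 359 normalised reads in Mfge8 null libraries 1 to 5, against 320.3, 319, 343 and 302 in WT libraries 1 to 4. The groups overlapped, null library 4 stood above the rest, and the log2 change was 0.18 (95% interval -0.108 to 0.473). In the intestine it had 247, 238 and 241 in Cd36 null libraries, against 234, 247, 261 and 267 in WT libraries, a read ratio of 0.96 (0.873 to 1.06). Of the other gasdermins, Gsdma was low, with means of 4.86 ± 2.95 in Mfge8 null and 9.24 ± 4.23 in WT enterocytes, and Gsdme, cut by caspase-3, averaged 101 ± 45.0 and 79.8 ± 18.7 in those groups (SD, n = 5 and 4). Neither passed the test.

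**Figure D3:**
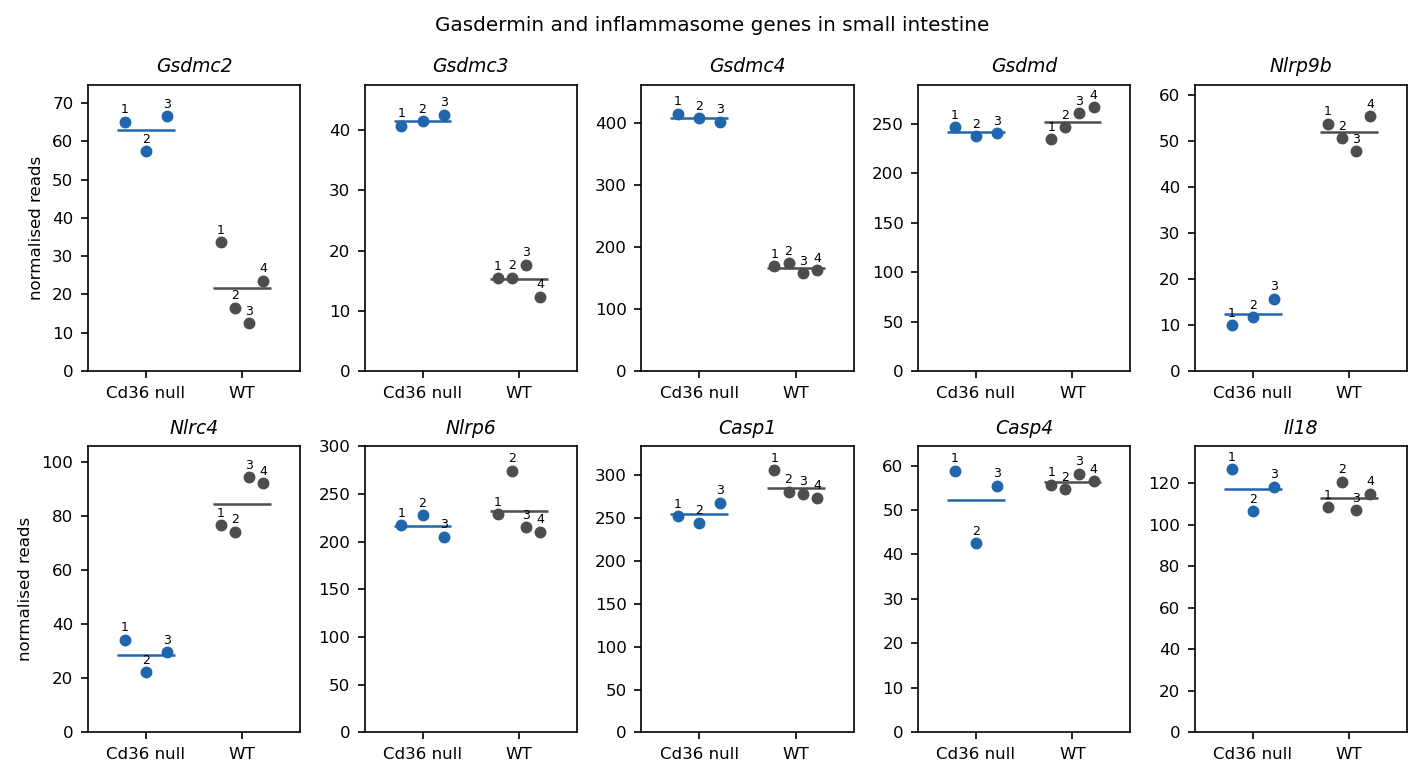
Normalised reads of the 10 genes in each small intestine library, Cd36 null left of WT; numbers are library numbers and lines are group means. The gasdermin C panels show every Cd36 null library above every WT library, the Nlrp9b and Nlrc4 panels show the opposite, and Gsdmd, Nlrp6, Casp4 and Il18 overlap.

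Nlrp9b, an epithelial sensor that responds to viral double-stranded RNA through the helicase DHX9 in mice, was the member lowest in Cd36 null intestine relative to WT. It had 9.95, 11.7 and 15.7 normalised reads in Cd36 null libraries, against 53.8, 50.6, 47.8 and 55.4 in WT libraries. The genotypes were far apart: 39 reads in all in the null libraries, against 205 in the WT libraries. The read ratio was 0.24 (95% exact binomial interval 0.166 to 0.34), and the log2 difference of -1.99 ranked 15 from the lowest among 9314 genes. In enterocytes Nlrp9b had 40.2, 12.1, 21.0, 45.0 and 27.1 in Mfge8 null libraries 1 to 5, against 30.4, 27.0, 25.9 and 57.6 in WT libraries 1 to 4. These groups overlapped throughout (log2 change -0.33, 95% interval -1.07 to 0.411), with a spread between libraries (coefficients of variation 46.7% in null and 42.7% in WT) above the 18.4% and 16.7% that counting alone gives.

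Nlrc4, the sensor that NAIP proteins activate on binding bacterial flagellin or secretion-system proteins, was likewise lower in Cd36 null intestine. It had 34.4, 22.4 and 29.6 normalised reads in Cd36 null libraries, against 76.8, 74.3, 94.6 and 92.4 in WT libraries. Every null library was below every WT library, with a read ratio of 0.345 (0.271 to 0.436) and a rank of 39 from the lowest. In enterocytes it was even, with 99.9, 97.6, 129, 106 and 97.6 in Mfge8 null libraries, against 103, 107, 101 and 130.1 in WT libraries. The log2 change was -0.06 (-0.389 to 0.273), and both spreads (12.5% and 12.2%) were near that of counting. The NAIP partners did not go with Nlrc4 in the intestine. Naip1 averaged 64.9 in Cd36 null and 58.6 in WT intestine, Naip2 34.4 and 27.6, Naip5 46.1 and 42.9, and Naip6 34.0 and 28.7, all with overlapping libraries.

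Nlrp6, a sensor highly expressed in gut epithelium and linked in mice to mucus secretion and host defence, did not separate the genotypes in either experiment. It had 216, 271, 298, 192 and 272 normalised reads in Mfge8 null libraries, against 277, 262, 258 and 237 in WT libraries. The intestine values were 217, 228 and 205 in Cd36 null libraries, against 229, 275, 215 and 210.4 in WT libraries. The log2 change was -0.07 in enterocytes (-0.394 to 0.259), and the intestine read ratio was 0.932 (0.843 to 1.03). The adaptor ASC, encoded by Pycard, averaged 267 ± 113 in Mfge8 null and 208 ± 72.0 in WT enterocytes (SD, n = 5 and 4). In the intestine Pycard averaged 171 in Cd36 null (162.9 to 184.2) and 204 in WT (195.4 to 211.4), without overlap but short of 1.5 fold.

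Casp1, the protease of the inflammasome, averaged lower in the null libraries of both experiments and passed neither limit. It had 169, 178, 162, 117 and 138 normalised reads in Mfge8 null libraries, against 232, 214, 171 and 193 in WT libraries. The groups overlapped only where null library 2 lay above WT library 3 (log2 change -0.41, 95% interval -0.754 to -0.0676, not called after adjustment over all genes). Cd36 null libraries held 252, 245 and 268, against 306, 281, 278 and 274 in WT libraries, a read ratio of 0.896 (0.817 to 0.982) with no overlap.

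Casp4 varied widely among enterocyte libraries of a genotype. It had 93.0, 18.6, 26.0, 61.0 and 56.6 normalised reads in Mfge8 null libraries 1 to 5, against 23.4, 38.5, 32.9 and 88.4 in WT libraries 1 to 4. The overlap was complete, and the log2 change of 0.11 (-0.788 to 1.01) turned negative in 3 of the 19 alternatives (without null library 1, null library 4 or WT library 1). Null library 2 was the lowest null library for both Casp4 and Nlrp9b, and WT library 4 the highest WT library for both, a likeness noticed after the values were seen. In the intestine Casp4 was even, with 58.8, 42.6 and 55.5 in Cd36 null libraries, against 55.7, 54.7, 58.2 and 56.4 in WT libraries. Its read ratio was 0.939 (0.763 to 1.15).

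Il18, the cytokine that caspase-1 matures, was the most abundant of the 10 genes in both enterocyte groups. It had 394, 573, 388, 1025 and 492 normalised reads in Mfge8 null libraries 1 to 5, against 844, 557, 478 and 446 in WT libraries 1 to 4. The highest value of each group, null library 4 and WT library 1, stood apart from the rest, and the log2 change was -0.07 (-0.613 to 0.472). In the intestine the libraries ran from 107 to 127 in Cd36 null and from 107 to 121 in WT, a read ratio of 1.04 (0.907 to 1.2). Il18 overlaps Bco2 on the opposite strand, and whether counting used strand is not given. Its binding protein Il18bp, a secreted inhibitor, averaged 14.4 ± 8.44 in Mfge8 null and 4.89 ± 2.33 in WT enterocytes (SD, n = 5 and 4) and did not pass (limma adjusted p = 0.142).

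The order of levels differed between the sources. In WT enterocytes Il18 came first (581), then Gsdmd (321), Nlrp6 (259), Casp1 (202) and Nlrc4 (110.3), each library range of a gene lying apart from the next in that order. Casp4 (45.8), Gsdmc4 (43.0) and Nlrp9b (35.2) followed with overlapping ranges, and Gsdmc2 (11.5) and Gsdmc3 (4.83) came last. In Mfge8 null enterocytes Gsdmc4 (199) stood between Nlrp6 (249.6) and Casp1 (153), and Gsdmc2 (94.0) beside Nlrc4 (106). In Cd36 null intestine Gsdmc4 (408) was the most abundant of the 10, ahead of Casp1 (255) and Gsdmd (242). In WT intestine it stood lower (166), after Casp1 (285), Gsdmd (252) and Nlrp6 (232).

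Markers of position along the small intestine differed between enterocyte libraries of a genotype. A score of mean log2 level of proximal minus ileal marker genes, centred over the table, was 0.08, 0.32, -1, 1.6 and -1.63 in Mfge8 null libraries 1 to 5 and 1.3, 0.32, -0.39 and -0.59 in WT libraries 1 to 4. The libraries with the most proximal scores, null 4 and WT 1, had the most Il18 in their groups. Null library 4 also had the least of each gasdermin C gene among null libraries. WT library 1, also proximal, held a middle value of Gsdmc4 (30.4) and the lowest of Gsdmc3 (1.17). Summed over the branch, WT libraries 1 to 4 held 45.59, 110.2, 21.95 and 59.57. The part of position in the spread of these genes was not tested. Of the markers behind the score, 1 of 4 proximal genes was called lower and 1 of 5 ileal genes higher in Mfge8 null enterocytes. With the score as a covariate, the log2 changes were 2.78 for Gsdmc2, 2.16 for Gsdmc3 and 2.03 for Gsdmc4, against 2.89, 2.35 and 2.17 without it. These changes are descriptions, and nothing about position is read from them. In the intestine the score ran from -0.03 to 0.18 in Cd36 null and from -0.2 to 0.08 in WT libraries.

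**Figure D4:**
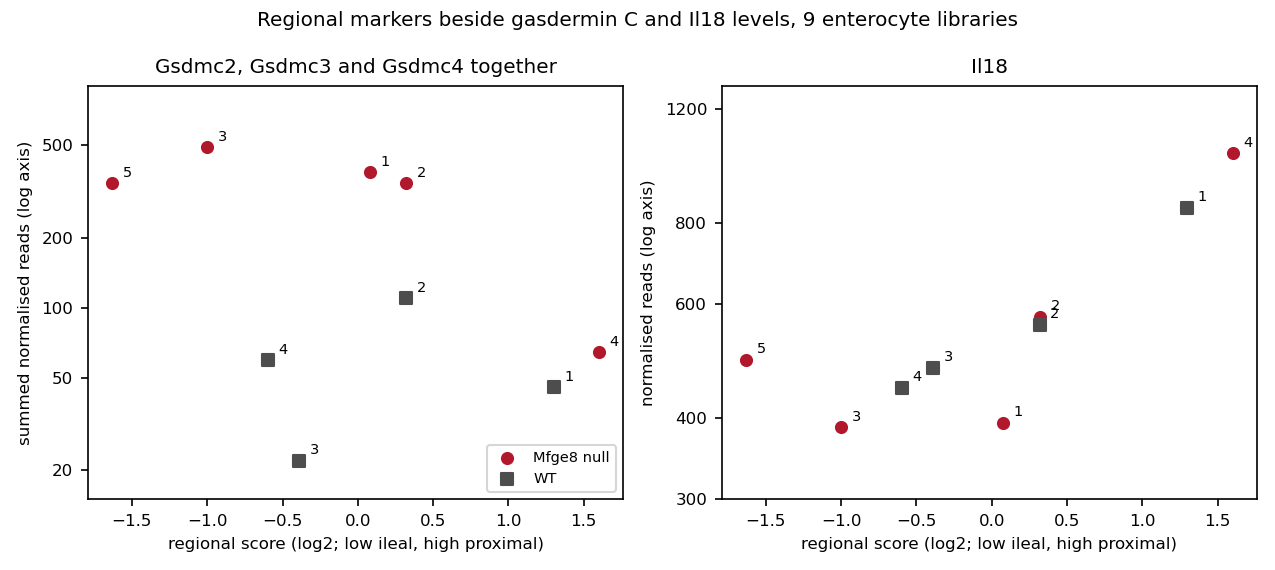
Summed normalised reads of Gsdmc2, Gsdmc3 and Gsdmc4 (left) and of Il18 (right), both on log axes, against the regional score of each enterocyte library, proximal to the right, Mfge8 null and WT in separate colours with library numbers. Null library 4, at a score of 1.6, has the lowest gasdermin C sum of the null libraries (64.2) and the highest Il18 (1025).

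Markers of other cells also moved with genotype, and in bulk samples fewer cells of a type and less RNA per cell cannot be told apart. Of 8 tuft cell markers in the intestine, 6 passed the filter on low values, and all 6 were higher past 1.5 fold without overlap. Summed levels of the list were 273 to 292 in Cd36 null and 119 to 126 in WT libraries. Tuft cells are the chemosensory epithelial cells that start type 2 responses through IL-25. All 3 mast cell markers that passed the filter were higher too, with list sums of 216 to 256 in Cd36 null and 26.9 to 46.8 in WT libraries. The mast cell markers Tpsb2 and Cma1 were at 0. T cell and intraepithelial lymphocyte markers were lower, 4 of 9 past the limit, with sums of 769 to 835 in Cd36 null and 997 to 1333 in WT libraries. Of 9 macrophage and monocyte markers only 1 passed the filter, and it was lower. The list's sums were 17.0 to 19.4 in Cd36 null and 18.6 to 28.1 in WT libraries. Stromal marker sums were lower, at 32.0 to 38.9 in Cd36 null and 49.9 to 68.6 in WT libraries. Of 5 stromal markers 2 passed the filter, and 1 of these was lower past the limit. Ileal markers summed to 736 to 802 in Cd36 null and 1007 to 1082 in WT libraries, and proximal markers to 4754 to 4922 in Cd36 null and 4064 to 4324 in WT. Of 6 tested ileal markers 1 was higher and 1 lower past the limit, and of 5 tested proximal markers 0 passed it. The part of these shifts in the differences of the gasdermin C genes, Nlrp9b and Nlrc4 was not tested. Enterocyte markers were even, with 0 of 8 past the limit (30400 to 31520 in Cd36 null and 29710 to 30600 in WT).

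**Figure D5:**
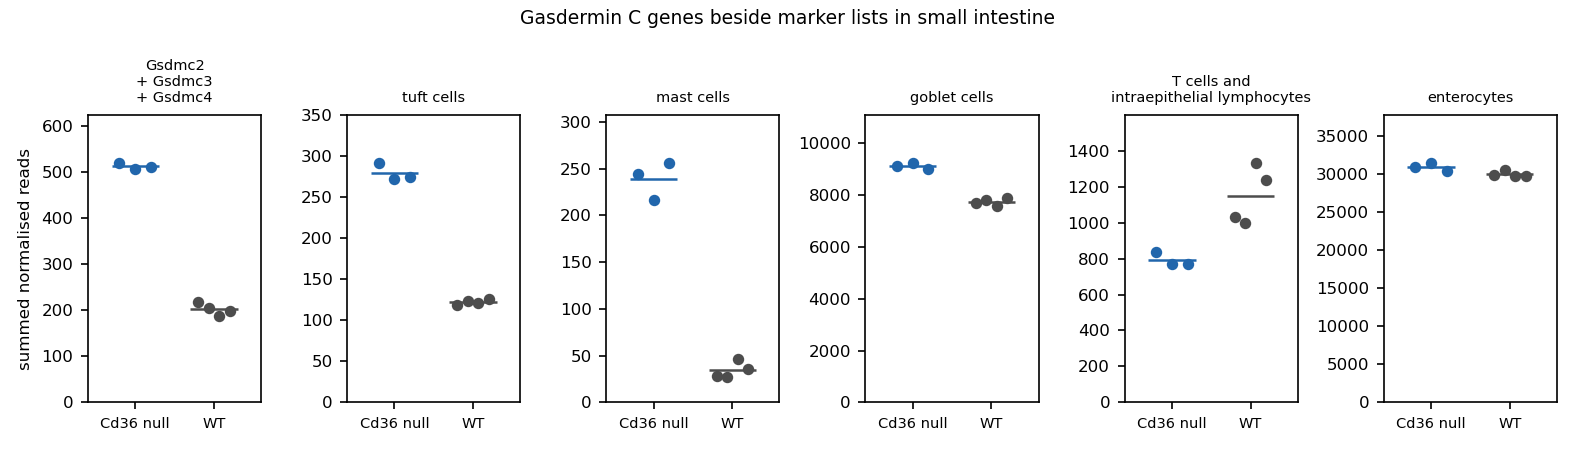
Summed normalised reads of the gasdermin C genes and of cell marker lists in each small intestine library, Cd36 null left of WT. Tuft cell sums (273 to 292 in Cd36 null, 119 to 126 in WT) and mast cell sums (216 to 256 in Cd36 null, 26.9 to 46.8 in WT) do not overlap between genotypes, T cell sums are lower in Cd36 null, and enterocyte sums are close.

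In enterocytes the tuft cell markers overlapped between the groups (0 of 7 called by limma, edgeR or DESeq2 and 0 at an unadjusted p under 0.05, sums of 116 to 221 in Mfge8 null and 104 to 184 in WT). B and plasma cell marker sums did not overlap, at 206 to 501 in Mfge8 null and 17.5 to 124 in WT, with 1 of 4 called and Cd79a at 0. T cell and intraepithelial lymphocyte sums were 3682 to 8994 in Mfge8 null and 1356 to 4127 in WT. Of 9 such markers limma and edgeR called 0 and DESeq2 3, and 7 had an unadjusted p under 0.05. In Mfge8 null libraries 1 to 5 the T cell sums were 6738, 3682, 4206, 5524 and 8994, beside gasdermin C sums of 382, 343, 489, 64.2 and 344. Their part in the gasdermin C differences was not tested.

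The wider pathway was read from 8 lists holding 90 distinct genes in the tables, drawn up with earlier results of these data known. Counts, shares and p-values of list genes are therefore given as descriptions, and nothing is read from them. In Mfge8 null enterocytes 3 of 59 tested list genes rose (5.08%) and 0 fell, against 3.21% called either way over all genes, and the median log2 change was 0.17, against 0.001 over all genes. Of these, 2 belong to necroptosis, a death pathway that does not need gasdermins. Ripk3, its kinase, averaged 67.7 ± 18.8 in Mfge8 null and 17.2 ± 3.54 in WT enterocytes (SD, n = 5 and 4), a log2 change of 1.9 (SE 0.238, limma adjusted p = 0.000218). Zbp1, a sensor of Z-form nucleic acids that recruits RIPK3, averaged 52.9 ± 14.1 in Mfge8 null and 20.3 ± 7.11 in WT, a log2 change of 1.36 (limma adjusted p = 0.0104). Both calls held in all 19 alternatives. Mlkl, which RIPK3 phosphorylates to break the membrane, had 11.2 ± 3.98 in Mfge8 null and 9.77 ± 2.99 in WT and did not pass. In Cd36 null intestine 0 of the 5 necroptosis genes passed 1.5 fold without overlap, with a median log2 difference of 0.09.

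The other called gene was Il4ra, the receptor chain for IL-4 and IL-13, in the list of the epithelial type 2 response. It averaged 248 ± 43.7 in Mfge8 null and 156 ± 17.4 in WT enterocytes (SD, n = 5 and 4), a log2 change of 0.65 (limma adjusted p = 0.0362). That call held in 10 of 19 alternatives and was lost without null library 2, 3, 4 or 5 and without WT library 1, 2 or 4 (log2 0.58 to 0.68 in these). Of the 7 tested genes of the list, 6 did not pass with limma or DESeq2 in enterocytes and 5 did not with edgeR, which also called Ang4. Ang4, an antimicrobial angiogenin, averaged 168 ± 98.0 in Mfge8 null and 47.2 ± 27.6 in WT (SD, n = 5 and 4; limma adjusted p = 0.0974), and the list's median was 0.56. In Cd36 null intestine 2 of 7 passed 1.5 fold without overlap. Retnlb, a goblet cell protein induced by type 2 cytokines, averaged 32.9 in Cd36 null (32.0 to 34.2) and 3.71 in WT intestine (0 to 8.64). Retnlb met the filter of at least 5 in 3 libraries only through the Cd36 null libraries, where it was high. Its place in this count thus supports nothing. Dclk1, a tuft cell gene, averaged 74.8 in Cd36 null (71.2 to 78.7) and 40.8 in WT (40.3 to 41.6). The list's median log2 difference was 0.51, against -0.0021 over all genes.

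The sensors and helpers besides the 10 genes showed less. In enterocytes 0 of 10 tested passed the threshold with limma, edgeR or DESeq2, 0 had an unadjusted p under 0.05, and the median was 0.12. In the intestine 1 of 10 was lower, the DNA sensor Aim2, with 4.52 to 6.48 in Cd36 null and 7.68 to 10.3 in WT libraries, a difference that rests on few reads. Of the other caspases and granzymes 0 of 9 passed in enterocytes with limma or edgeR and 1, Gzma, with DESeq2, and 3 had an unadjusted p under 0.05. There Gzma, a granzyme of cytotoxic lymphocytes that cuts gasdermin B in humans, averaged 4112 ± 1488 in Mfge8 null and 2086 ± 828 in WT (SD, n = 5 and 4; limma adjusted p = 0.0843). In the intestine 2 of 10 were lower. Casp12 had 1.06 to 7.40 in Cd36 null and 8.21 to 15.6 in WT libraries, and Gzmb, a cytotoxic granule protease, 80.5 to 103 in Cd36 null and 131 to 184 in WT. Casp12 rests on few reads and met the filter through its WT libraries, where it was high. Among lipopolysaccharide sensing and guanylate-binding genes 0 of 11 passed in either experiment, with medians of 0.05 in enterocytes and -0.11 in the intestine. The same held for membrane rupture and repair (0 of 8 in each, medians 0.13 and 0.03) and for interleukin-1 family genes (0 of 7 in enterocytes, median -0.01, and 0 of 6 in the intestine, median 0.17). In enterocytes these zeros held with edgeR and DESeq2, and an unadjusted p under 0.05 was found for 2 interleukin-1 family genes and for 0 of the other lists named here. Of the other gasdermins 0 of 2 passed in enterocytes (median -0.27) and 0 of 1, Gsdme at 31.5 in Cd36 null and 41.4 in WT, in the intestine. Over all lists, 2 of 58 genes were higher and 3 lower in the intestine (8.62% either way), with a median of 0.02. Over all 9314 genes, 2.61% were higher and 3.17% lower.

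The genes most like Gsdmc2, the member with the widest spread, were found by the root mean square difference of centred log2 values over the 9 enterocyte libraries. They were Capn13 (0.471), a calpain protease, Car4 (0.506), a carbonic anhydrase, and H2-DMa (0.767), a chaperone of class II antigen presentation, against a median of 1.79 over all genes. Capn13 averaged 18.4 ± 12.5 in Mfge8 null and 2.66 ± 1.84 in WT enterocytes (SD, n = 5 and 4). Car4 averaged 312 ± 105 and 47.8 ± 26.5, and H2-DMa 85.7 ± 18.8 and 14.9 ± 6.16 in those groups. Being picked for likeness to Gsdmc2, which differs between genotypes over the same libraries, fixed these differences in advance. The genes most like Il18, the member with the highest mean, were Sgms1 (0.17), a sphingomyelin synthase, Cftr (0.213), the chloride channel, and Zfp276 (0.222), against a median of 0.581.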

How the data were processed

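Libraries were made with the QuantSeq forward kit, with unique molecular identifiers, and read as single 100-base reads, per the labels' protocols; whether identifiers were collapsed is not given in the sources used here. Tools named per the submitters' processing notes are DESeq2 (version 2.11.40), HTSeq (0.91), HISAT2 (2.1.0) and Trimmomatic (0.38.1), with mm10 as the build. The deposited signal values have the form of gene counts divided by 1 size factor per library; whole reads came back for 100% of values (tolerance 1e-06), but a separate check of that recovery did not pass for WT enterocyte library 4 and Mfge8 null library 3. The members and lists were chosen with earlier results of these data known.

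Values were taken as log2(value + 1). Mfge8 null enterocytes were tested against WT with limma 3.58.1 (R 4.3.3), trended variance, Benjamini-Hochberg adjustment and a threshold of 0.05, over genes with at least 5 normalised reads in 4 libraries. Cd36 null and WT intestine, each counted as 1 sample, were compared by difference and by exact binomial intervals at 95%, over genes with at least 5 in 3 libraries. Similar genes were named for the members of highest mean and widest spread, 3 each. Alternatives were pseudocounts, filters, TMM scaling, edgeR 4.0.16, DESeq2 1.42.0, a replicate block, a regional covariate and leaving out each library. edgeR, which uses the recovered reads, was also run without those 2 libraries, an alternative chosen after seeing the data.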

Additional observations from a re-analysis of the deposited data

Results flagged for a closer look

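In 30 groups of 4 or 5 libraries (10 genes in the Mfge8 null, WT enterocyte and WT intestine groups), 3 held a library far from the others of its group; chance flags about 1 group in 20. Gsdmd in Mfge8 null library 4 stood at 455 normalised reads, the next highest null library at 359. Nlrp9b in WT enterocyte library 4 stood at 57.6, the next at 30.4. Nlrc4 in Mfge8 null library 3 stood at 129, the next at 106. The causes were not tested.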

How the results depend on the processing

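The count of called genes in enterocytes was 303. Leaving out each library in turn gave 140 to 388, with 140 without WT library 1, 173 without WT library 2, 185 without null library 3 and 199 without null library 5. With a replicate block the count was 229, and Gsdmc4 (log2 2.07) and Il4ra were no longer called. Deviations of same-numbered libraries correlated at -0.12 to 0.214 in enterocytes and -0.0147 to 0.00334 in the intestine. Libraries of unlike number were not compared in this way, so whether replicate numbers pair the libraries is not known. DESeq2 gave 430 and edgeR 317. edgeR without WT library 4 and null library 3, whose whole reads a separate check did not accept, gave 255, and Gsdmc3 (log2 2.57), Gsdmc4 (2.05) and Il4ra (0.646) were not called. Called list genes numbered 2 to 4. In the intestine the count past 1.5 fold was 538, of which 45.2% were higher, and 354 with a pseudocount of 5. limma with libraries as replicates called 699, 56.1% higher, and 643 with a replicate block. Casp4 in enterocytes, not called in any setting, turned to -0.156 without null library 1. Gsdmd, Nlrp9b, Nlrc4, Nlrp6, Casp1 and Il18 were called in 0 of 19 settings in enterocytes. In the intestine the 5 members past 1.5 fold kept their direction in every setting run. Low counts limit Gsdmc2 and Gsdmc3 in WT enterocytes and Nlrp9b in Cd36 null intestine.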

Other observations

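Among genes patterned like Gsdmc2 in enterocytes, the small intestine values were not alike. Capn13 was at 68.8 to 72.2 in Cd36 null and 22.6 to 41.6 in WT intestine, a log2 difference of 1.23. Car4 averaged 653 in Cd36 null and 515 in WT, and H2-DMa 179 in Cd36 null and 192 in WT. Goblet cell markers summed to 9006 to 9236 in Cd36 null and 7580 to 7872 in WT intestine, with 0 of 7 past 1.5 fold.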
